A study of Homo sapiens with 6 samples.

Results

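Regions where a 5-hydroxymethylcytosine (5hmC) peak was listed in high glucose alone and a 5-methylcytosine (5mC) peak in normal glucose alone were collected from 4 peak lists. All rows on chromosomes 1 to 22 and X were pooled, and rows that overlapped by at least 1 bp were merged into union regions. A union region was kept when its rows came from exactly the high-glucose 5hmC list and the normal-glucose 5mC list. This held for 454 of 319166 union regions, or 0.142%. The regions were thus chosen by the presence and absence of listed peaks. The 4 presence calls, the peak strengths and the gaps to the other lists are therefore given as descriptions, with no test.

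The cells were A2058, a human melanoma line, and every group over-expressed TET2WT, wild-type TET2; how, and whether in 1 clone, is not given in the sources used here. They had been grown for 7 days in high glucose or in normal glucose, and the labels give no glucose concentration. Each mark had 1 immunoprecipitated library at either glucose level (hMeDIP-seq for 5hmC, MeDIP-seq for 5mC), and either glucose level had 1 library of input DNA. Cells without over-expressed TET2 were not analysed here. No group had a replicate, so no comparison carries a replicate error. All positions are on hg19 and are printed 1-based. No gene annotation or genome sequence on hg19 was used here, so regions are given by position only.

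TET2 is a dioxygenase that oxidises 5mC to 5hmC, an early step in the removal of cytosine methylation. Oxidation at a cytosine turns the one mark into the other. AMPK, a kinase that senses low cellular energy, is known to phosphorylate and stabilise TET2, which ties the enzyme to the glucose supply. Both assays enrich sheared DNA fragments with an antibody against the modified base. A peak therefore reports a pile of modified fragments and not a single cytosine, and overlapping peaks of both marks need not come from the same DNA molecule.

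The 4 lists rested on unequal depth. Fold and p-value allowed the fragment count at each summit and its expected count to be worked out, and the smallest expected count was read as the genome-wide background. It was 3.03 fragments for 5hmC in high glucose and 2.64 for 5hmC in normal glucose, and 0.737 and 0.615 for the 5mC lists. With an assumed genome of 2700 Mb this gave 28.0 and 27.5 M reads for 5hmC and 6.14 and 5.11 M for 5mC (M, 1e+06). At the background, a summit reached the lowest listed -log10 p with 9 fragments for 5hmC in high glucose, 8 for 5hmC in normal glucose and 4 in either 5mC list. The absence of a row means only that no place there passed the authors' threshold.

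The 454 regions were the rarest of the 4 ways in which a peak of each mark found at 1 glucose level can meet. The converse, 5hmC listed in normal glucose alone with 5mC in high glucose alone, held for 1413 union regions (0.443%). Both marks were listed in high glucose alone in 923 (0.289%) and in normal glucose alone in 1479 (0.463%). The converse was 3.11 times as frequent as the 454, and more frequent on 23 of 23 chromosomes. The lists of the converse are the longer ones of each mark. With the longer list of each mark shortened to its strongest rows so that both had equal length, the counts were 673 and 925, a ratio of 1.37. The 673 overlapped all of the 454, which was fixed in advance. Only the lists that do not contribute to the 454 were shortened, so regions could only be added. The shortened lists are those that make up the converse, which lost their weakest rows. The lower ratio therefore does not test the part of list length.

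Of the union regions with a high-glucose 5hmC row, 45171 had no normal-glucose 5hmC row (24.5%). Among these, 91.3% met no 5mC row, 5.69% met 5mC at both glucose levels, 2.04% met 5mC in high glucose alone and 1.01% were the 454 regions (Wilson 95% interval 0.917 to 1.10, which covers counting error only). Of the union regions with a normal-glucose 5mC row, 19205 had no high-glucose 5mC row (21.9%), and the 454 made up 2.36% of them (2.16 to 2.59). In 7.70% of the 19205, 5hmC was listed in normal glucose alone, in 16.6% at both glucose levels and in 73.3% at neither. A 5mC peak of normal glucose alone was thus met by 5hmC of the same glucose level more often than by 5hmC of the other. For the 27677 union regions with 5mC in high glucose alone the order was the opposite: 5.11% met 5hmC of normal glucose alone, 3.33% met 5hmC of high glucose alone, 15.2% met 5hmC at both levels and 76.4% met none. For 5mC of either glucose level alone, the larger share thus met 5hmC of normal glucose alone, and the normal-glucose 5hmC list is the longer of its pair. Seen from the 63412 union regions with 5hmC in normal glucose alone, 2.23% were the converse, 2.33% met 5mC of normal glucose alone, 10.3% met 5mC at both levels and 85.1% met none.

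Each of the 454 regions consisted of exactly 1 5hmC row and 1 5mC row. Counted directly, 475 high-glucose 5hmC rows without a normal-glucose partner overlapped a normal-glucose 5mC row without a high-glucose partner. The other 21 lay in longer chains that a row of a further list joined, and they are not among the 454. The regions had a median width of 589 bp and ranged from 325 to 1725 bp.

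Their peaks were weak for their lists. The 5hmC peaks had a median -log10 p of 6.83, with quartiles of 5.11 and 8.52 and a range of 2.70 to 19.2. The whole high-glucose 5hmC list had a median of 9.99, and 64 of the 454 peaks (14.1%) were above it. The median fold enrichment was 3.66, against 4.47 in the list. All folds and p-values are the authors' own, and they describe a peak within its list. For 5mC the median -log10 p was 6.53, with quartiles of 5.41 and 8.17 and a range of 2.92 to 29.4. The normal-glucose 5mC list had a median of 10.2, which 35 of the 454 peaks (7.71%) exceeded. Both peaks were above the median of their list in 5 regions.

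Rows listed at 1 glucose level were weaker than rows with a partner in general. High-glucose 5hmC rows without a normal-glucose partner had a median -log10 p of 7.47 where no 5mC was listed, 6.78 where 5mC was listed in high glucose alone and 6.36 where it was listed at both glucose levels. Rows with a partner had a median of 11.5. For normal-glucose 5mC rows without a high-glucose partner the median was 6.53 whatever 5hmC did, and 12.7 for rows with a partner. This median is a value shared by many rows, so its tie does not show equal strength. Above the median of the list stood 7.71% of the 5mC peaks of the 454 and 9.80% of those where 5hmC was listed in normal glucose alone. The 5hmC peaks of the 454, with a median of 6.83, stood between those without 5mC and those with 5mC in high glucose alone. Single peaks spread widely, with quartiles of 5.11 and 8.52 in the 454, and the order of the medians was not tested.

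In fragments, the 5hmC summits held a median of 17 (10 to 33) where a median of 3.83 was expected. The 5mC summits held a median of 8 (4 to 25) where 0.794 was expected. In 89 regions (19.6%) the 5mC summit held 4 to 6 fragments, and in 116 (25.6%) it held 10 or more. Counts of this size carry a wide counting error. The 14 fragments of the 5mC summit of the region ranked 1 below have an exact Poisson 95% interval of 7.65 to 23.5.

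**Figure D1:**
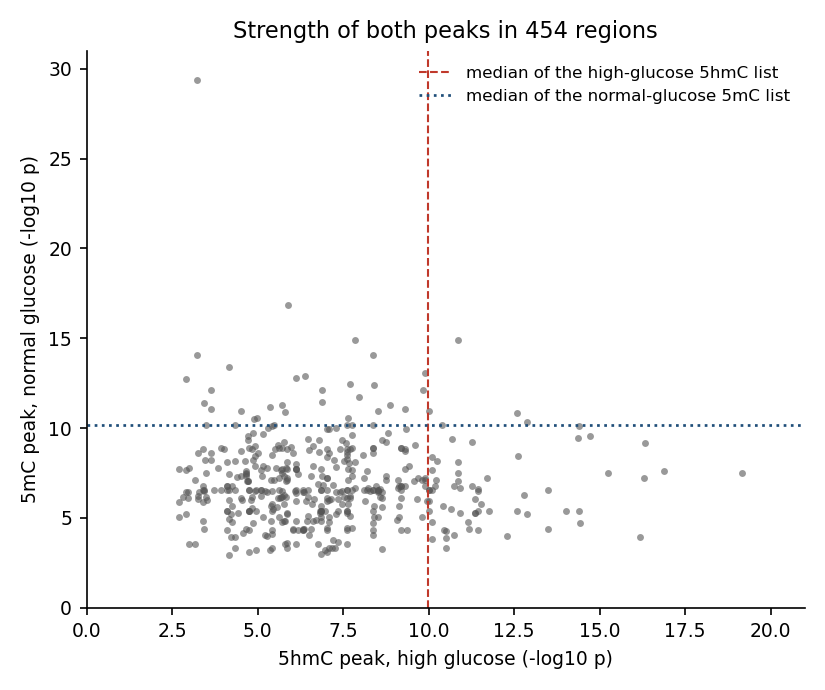
Each point is 1 of the 454 regions, with the -log10 p of its high-glucose 5hmC peak on the horizontal and of its normal-glucose 5mC peak on the vertical axis, and lines mark the medians of both whole lists. Most points lie left of 9.99 and below 10.2, only 5 lie beyond both lines, and strong 5hmC does not come with strong 5mC.

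Peak strength of one mark said little about the other. Across the 454 regions the -log10 p of the marks had a Spearman rho of 0.00438. The fragment counts had a rho of 0.205 and the expected counts a rho of 0.430. Both peaks share their position, so these values describe the regions and are given with no p.

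Regions were ranked by the smaller of their 2 -log10 p values, so that the first ones were well supported in both marks. Rank 1 was chr9:131021229-131022090. Its 5hmC peak was enriched 5.21-fold (-log10 p of 10.8, 20 fragments) and its 5mC peak 8.92-fold (-log10 p of 14.9, 14 fragments). The marks were offset there: the summits lay 495 bp apart, a high-glucose 5mC row lay 324 bp away and a normal-glucose 5hmC row 663 bp away. Rank 2 was chr1:48944254-48944692, where the summits were 8 bp apart. Its 5hmC peak reached a -log10 p of 12.6 with 22 fragments and its 5mC peak 10.8 with 11 fragments. The nearest normal-glucose 5hmC row was 6579 bp and the nearest high-glucose 5mC row 32824 bp away, so this region stood alone.

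Rank 3 was chr12:988620-989102, with a -log10 p of 12.9 for 5hmC and 10.4 for 5mC and summits 54 bp apart. The 5mC peak lay wholly inside the 5hmC peak, with an overlap of 365 bp, and a high-glucose 5mC row lay 393 bp away. Rank 4 was chr9:135534833-135535259, with 10.4 and 10.2, and rank 5 was chr12:7743548-7743897, with 14.4 for 5hmC and 10.1 for 5mC. At rank 5 the summits lay 4 bp apart, 25 fragments stood at the 5hmC and 10 at the 5mC summit, and no row of the other lists was within 23739 bp. Rank 6 was chr6:112121370-112121798, with 10.003 and 10.96, where a normal-glucose 5hmC row ended only 136 bp away. These 6 were the regions in which both peaks had a -log10 p of at least 10.

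The remaining 6 of the first 12 were chr1:15253281-15254242, chr11:117391766-117392292, chr10:101136618-101137120, chr1:229166704-229167056, chr16:16981981-16982508 and chr15:42172700-42173098. Among them the 5hmC peaks had a -log10 p of 9.33 to 14.7 and the 5mC peaks of 9.42 to 13.1. In chr1:15253281-15254242 a high-glucose 5mC row lay 61 bp away and the summits were 608 bp apart, so the normal-glucose 5mC peak stood next to a place where 5mC was listed in high glucose. The first 12 lay on 8 chromosomes, and their summits held 19 to 31 fragments for 5hmC and 10 to 14 for 5mC. In 9 of the 12 the summits were within 130 bp of each other. In 6 of the 12 a row of a list that does not contribute lay within 1000 bp, and in the other 6 none did.

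**Figure D2:**
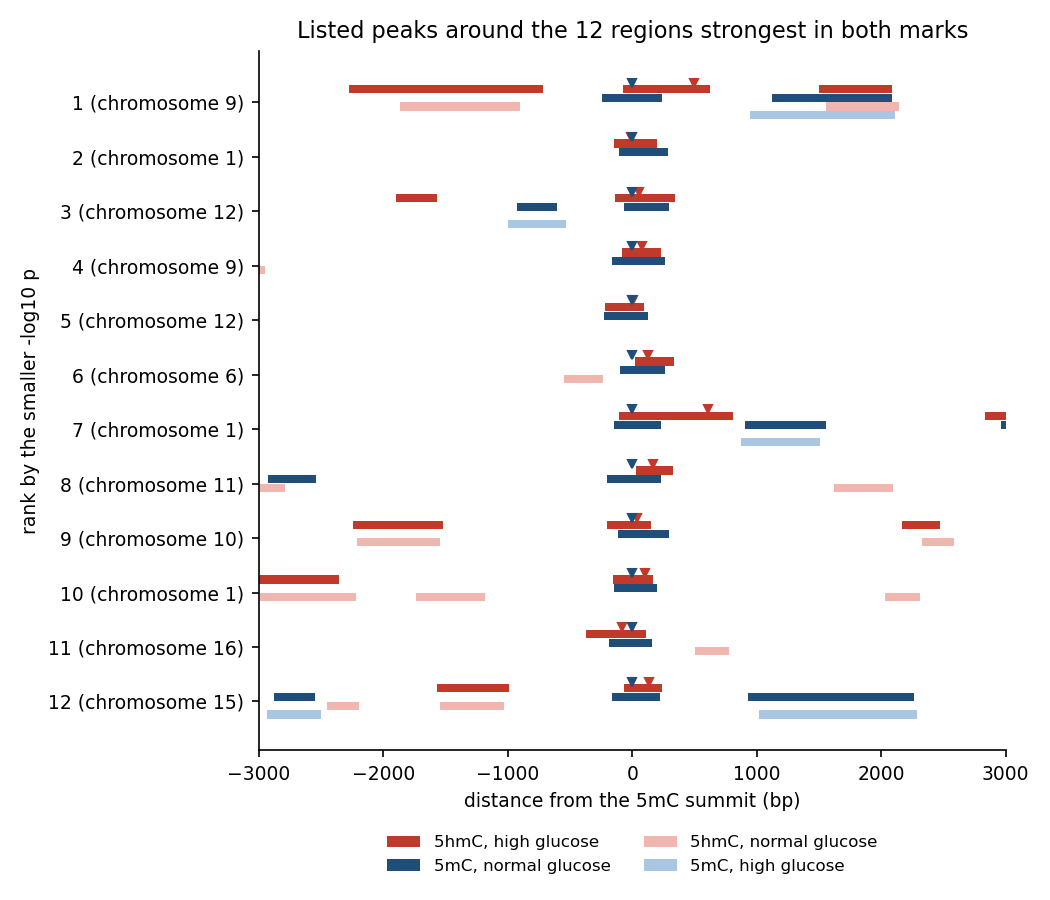
Listed peaks of all 4 lists within 3000 bp of the 5mC summit are drawn as bars for the 12 regions strongest in both marks, with distance in bp on the horizontal axis, rank on the vertical axis, and triangles for the summits of the contributing 5hmC and 5mC peaks. The pale bars of the other 2 lists never reach the pair at 0, are missing from the rows ranked 2 and 5, and come within 61 bp of the row ranked 7.

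The extremes of single marks lay elsewhere and were picked out after their values were seen. The strongest 5hmC peak was in chr17:19984707-19985573, enriched 6.58-fold with 33 fragments and a -log10 p of 19.2, beside a 5mC peak of 7.49. The strongest 5mC peak was in chr10:79570424-79571065, enriched 14.4-fold with 25 fragments and a -log10 p of 29.4. Its 5hmC partner was near the weak end, with a -log10 p of 3.23 and 15 fragments over 6.08 expected, and a high-glucose 5mC row lay 504 bp away. A 5hmC -log10 p of at least 15 was found in 6 regions and a 5mC value of at least 15 in 2. The weakest 5hmC peak, at 2.70, was in chr2:73042268-73042884, and the weakest 5mC peak, at 2.92, in chr17:64784748-64786388. Both stood at the limit of their lists, whose lowest values were 2.67 and 2.92.

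Within a region the marks were usually staggered. They overlapped by a median of 249.5 bp (quartiles 149.5 and 313.5), and their summits lay a median of 141.5 bp apart (quartiles 54 and 283). In 363 regions (79.96%) each peak ran past the other at one end. The 5hmC peak lay wholly inside the 5mC peak in 57 regions (12.6%) and the 5mC peak inside the 5hmC peak in 34 (7.49%). Staggered pairs made up 76.9% with both marks in high glucose alone, 72.3% with both in normal glucose alone and 74.0% in the converse. Staggering was thus not particular to the 454. The 5mC peak lay inside the 5hmC peak in 9.97%, 14.8% and 11.2% in the same order. Each summit fell inside the other peak in 225 regions (49.6%, Wilson 95% interval 44.98 to 54.1), against 527 of 923 (57.1%, 53.9 to 60.3) where both marks were listed in high glucose alone, 53.5% where both were listed in normal glucose alone and 52.7% in the converse. The intervals of the 49.6% and the 57.1% overlap, and they cover counting error only. In distance between summits the 454 were close to the other patterns. The median of 141.5 bp in the 454 stood beside 141, 142 and 148 bp in the order given above. Summits lay within 100 bp in 188 of the 454 (41.4%), against 38.2%, 37.5% and 37.1%.

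The longest overlaps were 675 bp in chr2:43283941-43285207, 634 bp in chr10:124792064-124792741 and 627 bp in chr10:31967162-31967960. In the second of these the summits lay 16 bp apart. At the other end, chr1:65301972-65302673 was included through an overlap of 1 bp, and chr2:11260294-11260978 and chr2:25775205-25775969 through 3 bp, with summits 376 to 413 bp apart. Just outside the rule were a pair at chr9:136800112-136800898 that touched without overlap, and pairs at chr11:2901977-2902618 and chr6:34535207-34536432 with gaps of 2 and 6 bp. Their 5hmC peaks had a -log10 p of 3.94 to 6.36 and their 5mC peaks of 5.41 to 7.04. Those with an overlap of 1 or 3 bp had 4.68 to 12.9 and 5.22 to 7.04. Neighbouring high-glucose 5hmC and normal-glucose 5mC regions, each with rows of its own list alone, came within 100 bp of each other without overlap in 54 places and within 300 bp in 176.

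The lists that did not contribute often had a row close by. The nearest normal-glucose 5hmC row lay a median of 1992.5 bp away (quartiles 796 and 5449), and the nearest high-glucose 5mC row a median of 3415 bp (1242.5 and 9199). A normal-glucose 5hmC row lay within 300 bp of 32 regions and a high-glucose 5mC row within 300 bp of 12. Within 1000 bp at least 1 of them lay beside 186 regions (41.0%, Wilson 95% interval 36.5 to 45.6), and both beside 42. For the converse, a high-glucose 5hmC row lay within 1000 bp of 24.8% (22.6 to 27.1), where the corresponding share for the 454 was 32.2% (28.0 to 36.6). For 5mC the shares were 22.2% (20.1 to 24.5) and 18.1% (14.8 to 21.9). Where both marks were listed in high glucose alone, they were 30.1% (27.2 to 33.2) for normal-glucose 5hmC and 20.3% for normal-glucose 5mC. With both in normal glucose alone, they were 28.6% for high-glucose 5hmC and 23.9% for high-glucose 5mC. At least 1 such row lay within 1000 bp of 41.1% and 41.7% of these, and of 38.7% of the converse, so the 41.0% was not particular to the 454. The normal-glucose 5hmC list has more rows than the high-glucose list and the high-glucose 5mC list more than the normal-glucose list, and the part of these row numbers was not tested.

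At the other extreme, 79 regions (17.4%) had no row of either list within 5000 bp and 27 (5.95%) none within 10000 bp. The most isolated was chr19:43361209-43361769, where the nearest normal-glucose 5hmC row was 173691 bp and the nearest high-glucose 5mC row 326198 bp away. Its 5hmC peak had a -log10 p of 6.85 with 15 fragments and its 5mC peak 5.41 with 6 fragments. Next was chrX:93669830-93670167, with 136678 bp to normal-glucose 5hmC, and 6.31 and 6.53 for its peaks. Then came chr6:157362604-157363262 and chr16:12931269-12931665, with gaps of 25124 and 24426 bp, and chr12:7743548-7743897, described above. Of these 5 the last was the one with both peaks above a -log10 p of 10.

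**Figure D3:**
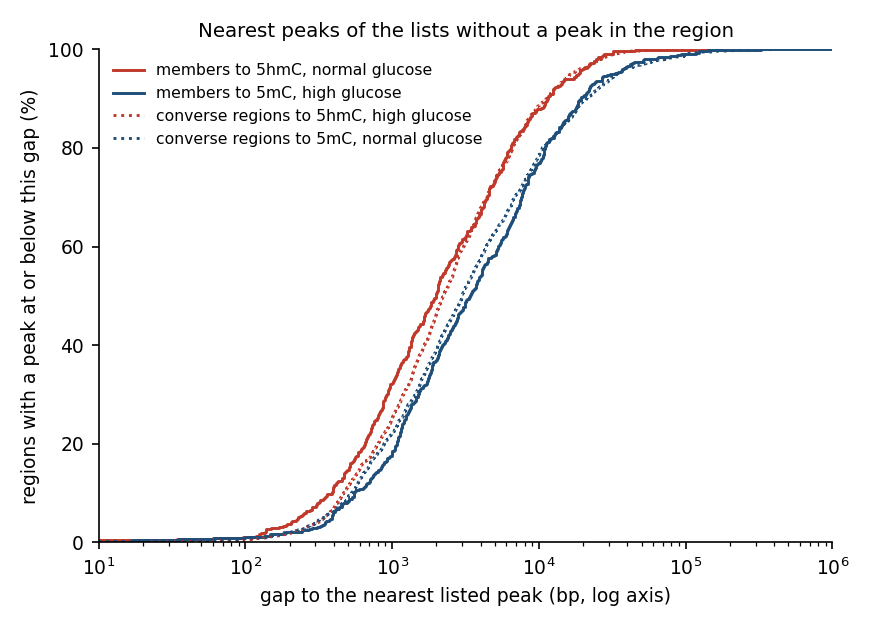
Cumulative percent of regions against the gap in bp (log axis) to the nearest row of the 2 lists without a peak in the region, for the 454 regions (solid) and the 1413 converse regions (dotted). For the 454 the 5hmC curve reaches 32.2% and the 5mC curve 18.1% at 1000 bp, and for the converse the curves lie closer together, at 24.8% and 22.2%.

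The regions were spread over all 23 chromosomes, from 3 on chromosome 21 to 43 on chromosome 1. Per 1000 union regions the genome-wide figure was 1.42. It was highest on chromosome 19, at 2.49 (32 regions), chromosome 12, at 2.20 (37 regions), and chromosome 13, at 1.87 (15 regions). It was lowest on chromosome 4, at 0.799 (11 regions), and chromosome 21, at 0.848 (3 regions). Chromosome 19 was rich in the converse as well, at 6.29 per 1000 against 4.43 genome-wide. Chromosome 12 was not, at 3.39, and its ratio of converse to the pattern described here, 1.54, was the lowest of the 23, which reached 5.00 on chromosomes 4, 21 and 22. Chromosome 13 was similar, with 3.25 per 1000 for the converse and a ratio of 1.73. Of the normal-glucose-only 5mC union regions on chromosome 12, 3.49% met high-glucose-only 5hmC (37 of 1061, Wilson 95% interval 2.54 to 4.77), where all chromosomes together gave 2.36%. Chromosome 19 had as high a share, 3.50% (32 of 914, 2.49 to 4.90). Of the high-glucose-only 5hmC union regions, 1.46% were such regions on chromosome 12, below chromosomes 19 (2.51%) and 17 (1.58%). Chromosome 12 was singled out among 23 after its value was seen, so its interval does not allow for the choice. With lists of equal length chromosome 12 held 47 of 673 regions, a setting that can only add regions. It held 28 of 279 when both contributing peaks had to reach a -log10 p of 5. It held 18 of 268 when no row of the other lists was allowed within 1000 bp. The latter settings can only remove regions, so these counts do not test whether chromosome 12 stands out.

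**Figure D4:**
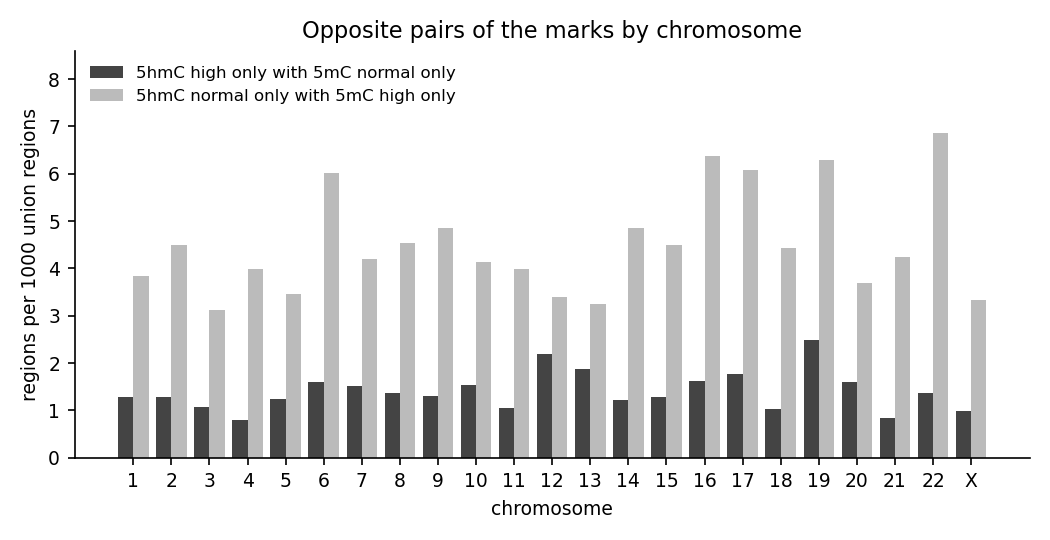
Bars give, for each chromosome, the number per 1000 union regions of 5hmC listed in high glucose alone meeting 5mC listed in normal glucose alone (dark) and of the converse (pale). The pale bar is the taller on all 23 chromosomes, and the bars come closest on chromosome 12, at 2.20 and 3.39.

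Chromosome 12 also held the densest groups. Its first 1 Mb had 6 regions, the most of any 1 Mb window, and none of the converse, with 2 places where both marks were listed in normal glucose alone and none where both were listed in high glucose alone. The window held 207 union regions. Of these 28 had 5hmC in high glucose alone and 20 had 5mC in normal glucose alone, so 6 of the 20 5mC regions met such 5hmC. Apart from chr12:988620-989102, ranked 3 above, they were chr12:338725-339123, chr12:631556-632451, chr12:704666-706017, chr12:708683-709407 and chr12:757855-758517. Their 5hmC peaks had a -log10 p of 4.89, 7.02, 3.40, 6.03 and 9.89 in that order, and their 5mC peaks of 10.5, 6.10, 4.85, 4.34 and 7.24. The last 4 lay within 126962 bp, the largest group in which neighbours were at most 100 kb apart. A row of a list that does not contribute lay 393 to 1369 bp from each of the 6. Over the window, 5hmC rows covered 6.40% in high and 7.39% in normal glucose and 5mC rows 4.64% and 4.55%, so the 6 regions went against the window's own difference in 5hmC. In 3 of the 6 both peaks had a -log10 p of 5 or more.

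A second window of chromosome 12, from 49000001 to 50000000, held 4 regions and 1 converse region. They were chr12:49320388-49321187, chr12:49424548-49424977, chr12:49647884-49648478 and chr12:49978537-49978996. In the last the 5mC peak had a -log10 p of 14.9 and 18 fragments, a value exceeded in 2 of the 454, beside a 5hmC peak of 7.84. A further 8 windows held 3 regions each, on chromosomes 1, 5, 7, 9, 10, 19 and, with 2 windows, 16. The 454 lay in 385 windows in all, and 36 of them (7.93%) were within 100 kb of another. In the converse this share was 29.7%, but there are 3.11 times as many such regions. The closest pair, 2665 bp apart, was in the first Mb of chromosome 12.

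The regions lay where both marks were dense. Their 1 Mb windows had a median 5hmC cover of 6.40% in high and 7.16% in normal glucose, and a median 5mC cover of 4.31% and 3.97%. Over all union regions these medians were 5.08%, 5.55%, 2.61% and 2.37%. When the 2875 windows were ranked by 5mC cover and divided into 5 groups of equal number, 264 of the 454 (58.1%) fell in the richest group, against 41.3% of all union regions, and 5 (1.10%) fell in the poorest, against 6.68%. The other 3 ways of meeting gave 58.4% to 63.5% in the richest group. All 4 require a 5mC peak and most union regions hold none, and the part of this requirement was not tested. Within 5 Mb of the outermost listed peak of a chromosome lay 86 regions (18.9%), against 13.1% of all union regions and 20.03% of the converse.

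The high-glucose 5hmC list covers less of the genome than the normal-glucose list, 115.002 against 124.8 Mb, and the high-glucose 5mC list covers more, 71.4 against 66.2 Mb. In 366 of the 454 (80.6%, Wilson 95% interval 76.7 to 84.0), 5hmC cover of the 1 Mb window was lower in high than in normal glucose, although the region itself had 5hmC in high glucose alone. In the converse this share was 87.2% (85.3 to 88.8) and over all union regions 69.0%. Where both marks were listed in high glucose alone it was 77.1%, and where both were listed in normal glucose alone 86.1%. The contrast was thus not particular to the 454. For 5mC, 102 of the 454 lay in a window with less cover in high glucose (22.5%, 18.9 to 26.5). The share was 12.4% (10.8 to 14.2) in the converse and 20.3% over all union regions. With both marks in high glucose alone it was 12.8%, and with both in normal glucose alone 19.7%. For 5mC the 22.5% of the 454 was thus close to the 20.3% over all union regions. These intervals cover counting error only. The window of a region includes the region itself, whose own rows add to high-glucose 5hmC and normal-glucose 5mC cover, and the size of this part was not tested. The 5 windows in which high-glucose 5hmC cover fell furthest below the normal-glucose cover held 3 of the 454 regions and 16 converse regions. The 5 windows in which it was furthest above held 0 of the 454 and 1 converse region. These windows were chosen by 5hmC cover, to which the rows of both patterns add, and the converse is 3.11 times as frequent over the genome. The number of union regions in these windows was not counted, so these counts give no comparison of the patterns.

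Beside a region, the next union region was 1050.5 bp away in the median, against 1535 bp for all union regions. In 119 of the 454 (26.2%) that neighbour had 5hmC at both glucose levels and no 5mC, in 65 (14.3%) 5mC at both and no 5hmC, and in 43 (9.47%) both marks at both levels. Over all union regions these shares were 34.0%, 11.2% and 7.62%. In the other ways of meeting the median gap was 965 to 1020 bp. Their shares were 24.8% to 28.2%, 12.2% to 17.6% and 9.75% to 11.6%, so these departures were not particular to the 454. In 130 regions (28.6%) the neighbour had 5hmC at 1 glucose level and no 5mC, against 29.7% over all.

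What the expected count at a summit was derived from is not given in the sources used here, and it is described as a value of the lists. At the genome-wide background, taken as an expected count within 2% of the lowest in the list, stood 103 of the 454 5mC peaks (22.7%, Wilson 95% interval 19.1 to 26.8). Among normal-glucose-only 5mC rows it was 40.7% where no 5hmC was listed, 32.0% where 5hmC was listed in normal glucose alone and 21.2% where it was listed at both glucose levels. The median expected count of the 5mC peaks was 1.29 times the background in the 454, and 1.11, 1.14 and 1.26 times in those other groups. For 5hmC, 89 of the 454 peaks (19.6%, 16.2 to 23.5) stood at the background, against 23.6% where no 5mC was listed, 29.2% where 5mC was listed in high glucose alone and 24.9% where it was listed at both. The median expected count of the 5hmC peaks did not keep this order: it was 1.26 times the background in the 454, 1.28 times where no 5mC was listed, 1.20 times with 5mC in high glucose alone and 1.24 times with 5mC at both. In the whole lists 17.7% of high-glucose 5hmC rows and 30.7% of normal-glucose 5mC rows stood at the background. Rows with a partner gave 15.8% and 29.2%. The 5hmC share of the 454 was thus slightly above that of its list, and the 5mC share below. Where both marks appeared at the same glucose level, more of the peaks stood at the background than in the 454, for either mark. The converse also had more, 27.7% for 5hmC and 31.4% for 5mC, so the lower shares were not common to both opposite pairings. Between the marks, the expected counts had a Spearman rho of 0.430 in the 454, 0.490 in the converse, and 0.747 and 0.716 where both marks came from high or from normal glucose. The part of the expected count in the pattern was not tested.

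**Figure D5:**
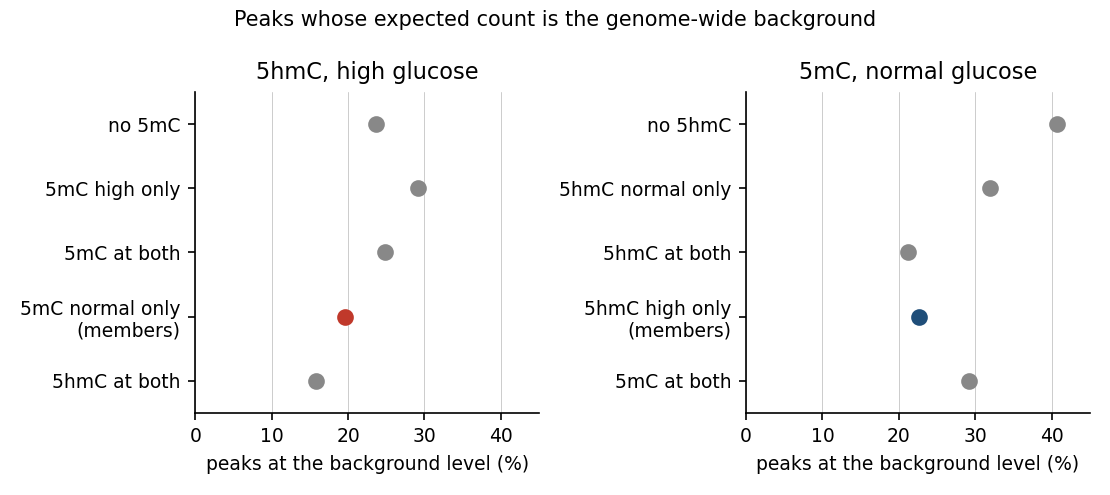
Points give the percent of peaks whose expected count was at the genome-wide background, for high-glucose 5hmC rows (left) and normal-glucose 5mC rows (right), by what the lists hold at the same place, with the 454 regions in colour and rows found at both glucose levels at the bottom. The 454 stand at 19.6% for 5hmC, below the other groups of 1 glucose level, and at 22.7% for 5mC, near the 21.2% of 5mC rows with 5hmC at both levels. Rows found at both glucose levels stand at 15.8% for 5hmC and 29.2% for 5mC.

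The expected count also varied by chromosome. In the high-glucose 5hmC list the median expected count was 1.74 times the background on chromosome 20 and 1.65 times on chromosomes 1 and 11, and on chromosomes 6, 14, 18, 21 and X it was within 1% of the background. On chromosomes 12 and 19, which had the most regions per 1000 union regions, it was 1.37 times, the same as over the whole list. For the 5hmC peaks of the 454 alone the median was 1.20 times the background on chromosome 12 and 1.11 times on chromosome 19, against 1.26 times over all 454.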

How the data were processed

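The authors deposited 1 narrowPeak list for each immunoprecipitated library (6 samples in all, 2 of them input). The submitters' processing notes name hg19, bedtools 2.17.0, SAMtools 0.1.18, Bowtie 1.0.0 and CASAVA 1.8.2, without roles. Not given in the sources used here are the peak caller, its control and how duplicates were treated. In the deposited lists each row carries a display score (not used), the summit, the fold enrichment as a linear ratio, and p- and q-value as -log10, with every q-value below 0.05. The row names say Ctrl in files labelled high glucose and Low in files labelled normal glucose; groups follow the labels. The lists held 191394, 210081, 100234 and 91885 rows (5hmC high and normal, 5mC high and normal glucose), of which 80, 82, 14 and 15 on other sequences were left out. Input DNA was not analysed on its own.

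Union regions, overlaps and gaps were computed in Python 3.11.15 with NumPy 2.4.6, pandas 2.3.3 and SciPy 1.17.1, and figures in Matplotlib 3.10.9. For each row a search gave the fragment count t and expected count L for which the fold equals (t + 1)/(L + 1) and the p-value the Poisson probability of more than t. These depths are inferred, and intervals cover counting error only, because copies of 1 molecule cannot be told apart. The search and the merging were tested on simulated data. The regions, lists and windows were chosen with earlier results of these data known. The regions named are the 12 with the highest value of the smaller -log10 p, the 5 farthest from the lists that do not contribute, and the 3 longest and 3 shortest overlaps with the 3 smallest gaps outside the rule. Gene lists and sequence features had been planned but were not used, because the annotation and sequences at hand are on another build. The alternatives were other thresholds, overlaps, merging distances, list lengths and a matched background.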

Additional observations from a re-analysis of the deposited data

How the results depend on the processing

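Of 11 alternatives, the ratio of the converse to the pattern (3.11) lay between 2.42 and 3.31 under 10 and was 1.37 with equal numbers of top peaks, where the converse count was 925. That alternative shortens only the lists that do not contribute to the pattern, so the pattern could only gain regions. The shortened lists make up the converse, so the lower ratio does not test the part of list length. Counts are given in the order pattern, converse, both marks in high glucose alone and both in normal glucose alone. They were 279, 820, 556 and 918 when both contributing peaks had a -log10 p of at least 5, and 6, 19, 17 and 25 at 10. They were 231, 701, 518 and 778 when the overlap was 50% of both peaks, 225, 745, 527 and 792 when each summit lay in the other peak, and 268, 866, 544 and 862 when no row of the other lists lay within 1000 bp. These 5 alternatives can only remove regions. The other counts stayed within 1.5 times. With every list held to a -log10 p of at least 5 there were 463 regions, but only 279 of the 454 were among those overlapped, and with rows within 500 bp merged there were 563, overlapping 349 of the 454. Lists matched for background gave 458 regions, overlapping 448 of the 454. The median summit distance was 327 bp after merging within 500 bp, against 141.5 bp. The 5mC calls of the 454 rest on few fragments, with a median of 8 at the summit. No paired analysis was possible because each group has 1 library.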
